A study of Saccharomyces cerevisiae with 4 samples.

Results

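Ribosome biogenesis factors are the proteins that process ribosomal RNA and assemble it with ribosomal proteins, and that leave before the ribosome starts to translate. The 57 genes described here carry NOP, UTP, RRP and DBP names or encode further assembly factors of the yeast Saccharomyces cerevisiae. They were chosen by name and by position, as factors outside chromosome arms I left, III left, III right and VII right, whose genes as a whole had low ratios on these arrays. The ratios of the factors themselves were not part of the rule. All 57 were on the arrays, among 6256 gene probes, and all 57 passed the filter on dim signals with both channels above background on every array. Transcript levels were measured on 4 two-colour oligonucleotide arrays. Each array carried Cy3-labelled RNA from a translocant strain, D10 Small, with 4 replicates labelled as biological, and Cy5-labelled RNA pooled from the parental strain WT San I. Cultures of both were in rich YPD medium and were taken at optical densities from 0.4 to 0.5, but kanamycin, an aminoglycoside, was present only for D10 Small, at 200 mkg/ml. No label describes the making of the pool, and no array had its dyes exchanged. Strain, kanamycin and a gene's dye effect therefore cannot be told apart. The pool is 1 control sample, and its own spread is missing from every test.

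In yeast the precursor ribosomal RNA is transcribed in the nucleolus by RNA polymerase I and is modified there by small nucleolar ribonucleoproteins, or snoRNPs. The small subunit (SSU) processome, built from the UTP proteins and the U3 snoRNP, folds and cleaves the part that becomes the small ribosomal subunit, while another set of factors assembles the large subunit. Genes of this pathway are known in yeast for being transcribed together and for following growth rate and nutrient supply through the TOR and protein kinase A pathways.

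Most of the 57 factors had less transcript in D10 Small than in the WT San I pool. With limma at a Benjamini-Hochberg adjusted p under 0.05, 47 of them were lower, 6 were higher and 4 did not pass. Over all 5794 genes tested, 39.5% were lower and 43.2% higher, against 82.5% and 10.5% of the factors. The median log2 ratio of D10 Small over the pool was -0.55 for the factors and 0.02 for all tested genes. Differences of at least 2-fold were few, with 3 factors that much lower and 0 higher, against 3.05% and 6.23% of all tested genes. The count of 3 was 1 with median centring in place of loess, 5 without background correction and 10 in the scanner's net ratio. Ratios ran from -1.09 for RRP5 to 0.55 for NOG2. Of the 57 ratios, 20 lay in the lowest 10% and 42 in the lowest 25% of all tested genes. A ratio below 0 on all 4 arrays was found for 48 factors, against 41.5% of all tested genes. The factors and lists were chosen with earlier results of these data known, so these counts describe them and carry no test of the list.

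**Figure D1:**
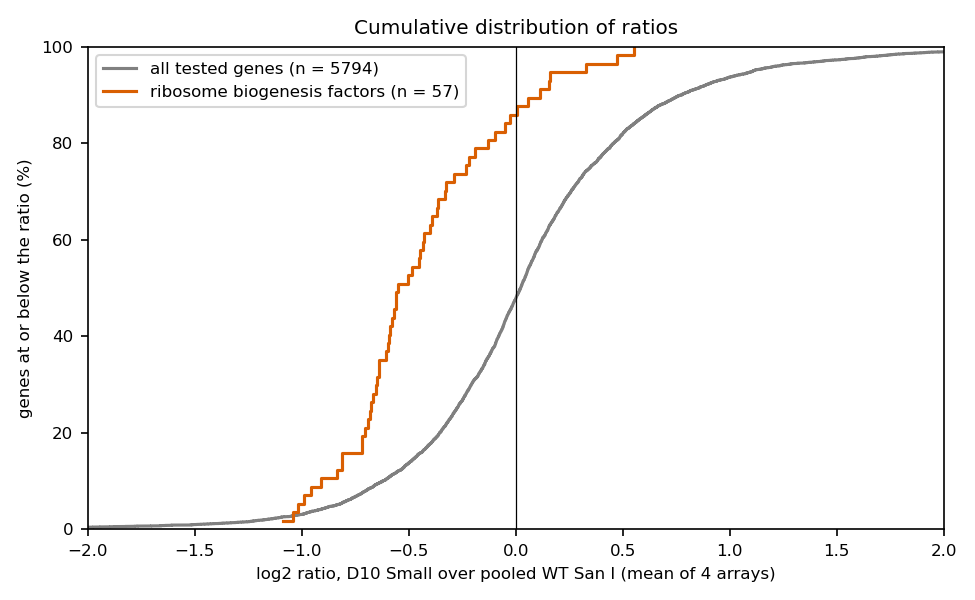
Cumulative share of genes (%) at or below each log2 ratio of D10 Small over pooled WT San I, the mean of 4 arrays, for the 57 ribosome biogenesis factors and for all 5794 tested genes; ratios beyond 2 in either direction are outside the axis. The curve of the factors lies to the left over most of its range, with a median of -0.55 against 0.02.

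The median ratio of the factors was -0.61, -0.49, -0.46 and -0.51 on the arrays of replicates 1 to 4. The array of replicate 1 gave the lowest of the 4 ratios for 30 of the 47 lower factors, and for 54.6% of all genes called lower. That array was also the brightest in both channels. The median raw intensity was 260.5 for the pool, against 120.4 to 164.5 on the others, and 444 for D10 Small, against 304 to 384. With no background correction the medians were -0.63, -0.51, -0.52 and -0.55, and the lowest was again that of replicate 1. The SD over the 4 arrays had a median of 0.075 for the factors and 0.072 for all tested genes. Between arrays the 57 ratios correlated with Pearson's r from 0.949 to 0.977, across genes, which are not independent replicates and share the pool.

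**Figure D2:**
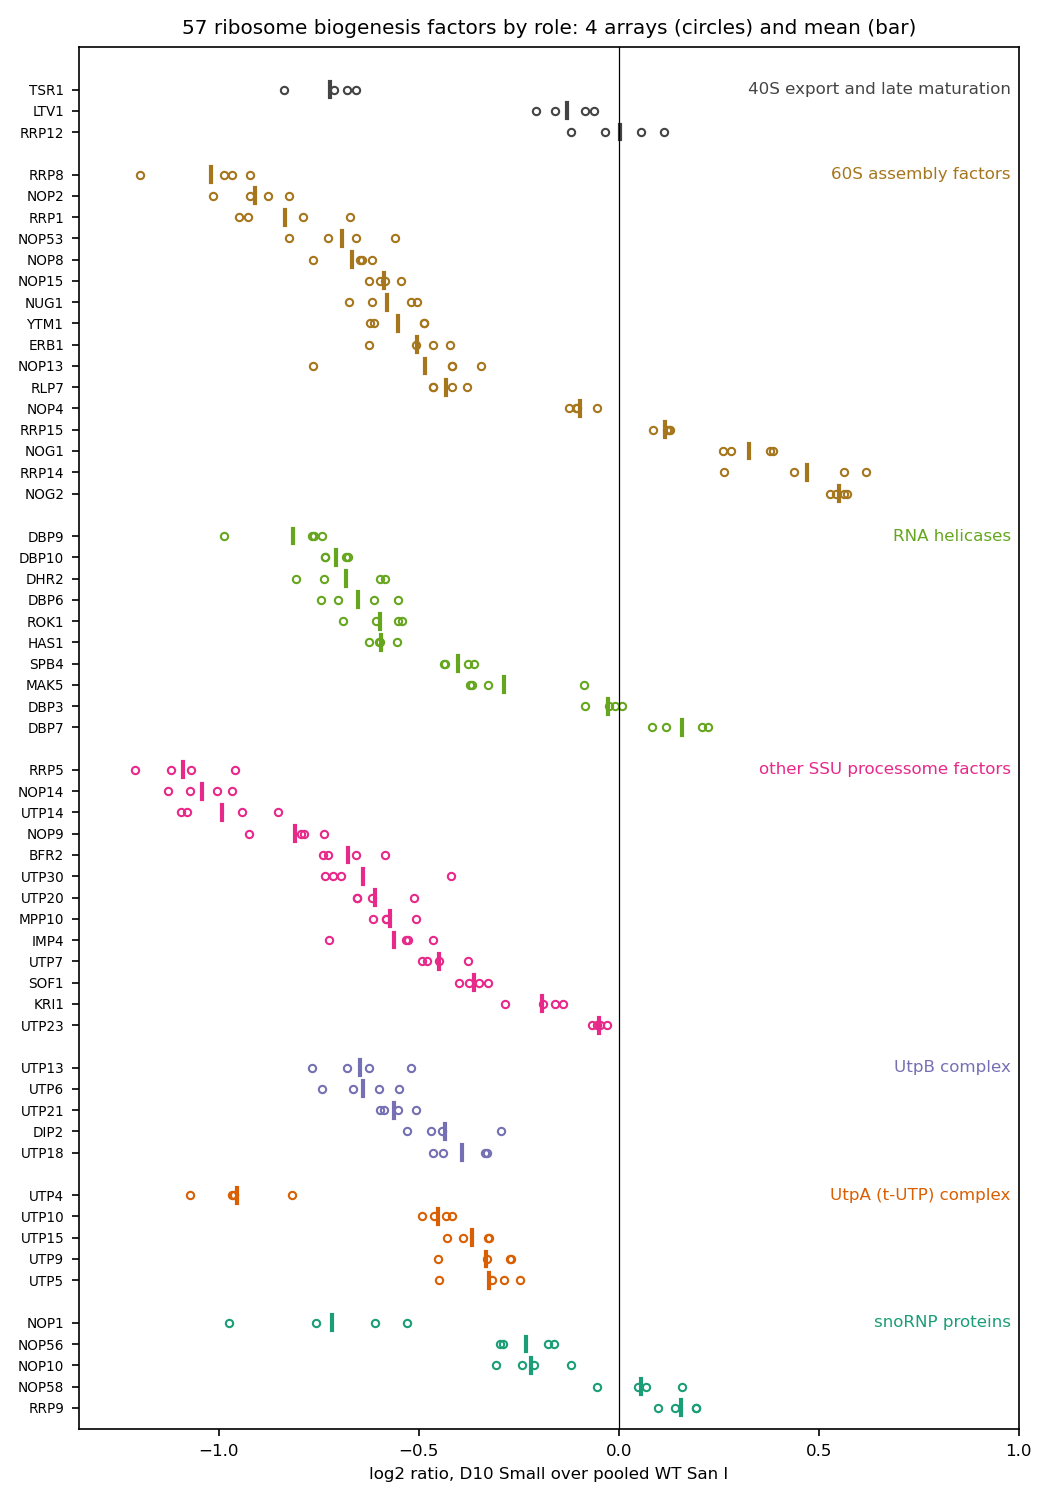
Log2 ratio of D10 Small over pooled WT San I for each of the 57 factors, grouped by role; circles are the 4 arrays and the bar is their mean. The listed genes of UtpA and UtpB lie wholly below 0. RRP15, NOG1, RRP14 and NOG2 of the large-subunit group, the helicase DBP7 and the U3 protein RRP9 lie above 0 on every array.

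The proteins of snoRNPs went different ways. NOP1 (YDL014W), the fibrillarin that methylates ribosomal RNA as part of box C/D snoRNPs, had ratios of -0.98, -0.76, -0.61 and -0.53. It was 1.64-fold lower, with a mean of -0.72 ± 0.20 (SD, n = 4) and a limma adjusted p of 2.41e-05. Its 4 values all lay below 0 but differed among themselves more than those of the other snoRNP proteins. NOP56, a core partner of NOP1, had ratios of -0.30, -0.16, -0.29 and -0.18, with a limma adjusted p of 0.000504. NOP58, the other core partner, had 0.05, 0.16, 0.07 and -0.05, values on both sides of 0, and did not pass (limma adjusted p = 0.226). The members of this box C/D core therefore did not share a value, and NOP1 lay below NOP56 and NOP58 on every array. RRP9 (YPR137W), a protein specific to the U3 snoRNP, was higher, with 0.14, 0.19, 0.19 and 0.10 and a limma adjusted p of 0.00212. NOP10, a core protein of the box H/ACA snoRNPs that guide pseudouridylation, was lower with -0.22 ± 0.08 (SD, n = 4; limma adjusted p = 0.000779), and with median centring in place of loess its ratio was 0.025 and it did not pass. The same change of normalisation gave NOP58 a ratio of -0.15, past the threshold, and moved NOP56 to -0.48 and RRP9 to 0.30.

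The 57 factors include 5 genes of UtpA, the complex also called t-UTP that binds the start of the precursor first. All 5 were lower in D10 Small, with a median of -0.37. Subunits outside the 57 factors are not counted in these values. UTP4 (YDR324C), a beta-propeller protein of UtpA, had ratios of -1.07, -0.82, -0.96 and -0.97. It was 1.94-fold lower, with a mean of -0.96 ± 0.10 (SD, n = 4) and a limma adjusted p of 4.22e-07. The other 4 genes stood closer to 0, and none of their values on any array overlapped those of UTP4. UTP10, a very large helical-repeat protein, had -0.49, -0.46, -0.43 and -0.42, and its limma adjusted p was 3.23e-06. UTP5 had -0.25, -0.32, -0.29 and -0.45, with a limma adjusted p of 0.000112. UTP15 and UTP9 lay between these at -0.37 and -0.33, so that UTP10, UTP15, UTP9 and UTP5 formed a run whose neighbours overlapped in their values. Against a minimum fold of 1.2, UTP5 and UTP9 no longer passed, with limma adjusted p of 0.169 and 0.130.

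UtpB joins after UtpA and contacts the U3 snoRNA. Its 5 genes among the 57 factors were all lower as well, with a median of -0.56. UTP13 (YLR222C) had ratios of -0.77, -0.68, -0.52 and -0.62 and a limma adjusted p of 3.15e-06, and its mean moved from -0.65 to -0.43 with median centring. UTP6 had -0.74, -0.60, -0.55 and -0.66, with a limma adjusted p of 1.85e-06. UTP18, which recruits the exosome helicase MTR4 to the processome, was the nearest to 0, with -0.44, -0.33, -0.34 and -0.46 and a limma adjusted p of 1.97e-05. UTP21 and DIP2, the latter also called UTP12, lay between them at -0.56 and -0.43. The median of these 5 UtpB genes was below that of the 5 UtpA genes on each array. It was -0.55, -0.59, -0.51 and -0.60 for UtpB, against -0.45, -0.32, -0.39 and -0.43 for UtpA. With median centring the order was turned, at -0.43 for UtpB and -0.46 for UtpA. Subunits of either complex outside the 57 factors are not part of this comparison.

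Among 13 further SSU processome factors, 12 were lower, 0 higher and 1 did not pass, with a median of -0.61. RRP5 (YMR229C), a large RNA-binding protein needed for both subunits, had the lowest ratio of all 57 factors, with -1.21, -1.12, -1.07 and -0.96. Its net signal, the spot mean less the local background in the scanner's units, was 709.6, 639.3, 643.0 and 593.6 for D10 Small and 1221, 753.2, 664.1 and 594.5 for the pool. The D10 Small channel was the brighter one over all tested genes, with medians of 490.5, 415.3, 395.0 and 320.9 against 288.5, 172.6, 147.4 and 122.4, and the ratios are corrected for that difference. RRP5 was 2.13-fold lower, with a mean of -1.09 ± 0.10 (SD, n = 4) and a limma adjusted p of 2.18e-07. NOP14 (YDL148C), a factor of the small subunit that acts with NOC4 and EMG1, had -1.13, -0.97, -1.07 and -1.01, and its limma adjusted p was 1.12e-07. Values of RRP5 and NOP14 overlapped. UTP23, which acts in the release of the snR30 snoRNA, stood near 0 with -0.066, -0.029, -0.047 and -0.055 (limma adjusted p = 0.148). Its direction depended on the normalisation, with 0.18 under median centring, where it passed as higher (limma adjusted p = 0.00421), and -0.16 in the scanner's net ratio, where it passed as lower. The 10 other genes of this group were all lower, from -0.99 for UTP14, the activator of the helicase ECM16, to -0.19 for KRI1, a partner of KRR1, which was at -0.53 with median centring. MPP10 and IMP4, subunits of a complex that binds the U3 snoRNA, had -0.57 and -0.56, or -0.33 and -0.67 with median centring.

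RNA helicases remodel base pairing between snoRNAs and the precursor. Of 10 helicase genes, 8 were lower, 1 higher and 1 did not pass, with a median of -0.60. DBP9 (YLR276C) had ratios of -0.99, -0.77, -0.74 and -0.76, with replicate 1 apart from the others, and a limma adjusted p of 1.28e-06. DBP10 (YDL031W) had -0.73, -0.73, -0.68 and -0.68 with a limma adjusted p of 2.98e-07. The 4 arrays agreed closely for DBP10, whose SD was 0.032. DBP3, a helicase of large-subunit RNA processing, had 0.0080, -0.025, -0.084 and -0.0097 and did not pass (limma adjusted p = 0.427), although with median centring it was lower at -0.20. DBP7, a helicase of early large-subunit particles, was higher with 0.21, 0.22, 0.12 and 0.084 (limma adjusted p = 0.00365), and at 0.38 with median centring. The 6 other helicases were lower, from -0.68 for DHR2 to -0.29 for MAK5, and HAS1, which acts on both subunits, had -0.59. MAK5 did not pass with median centring, at -0.12 (limma adjusted p = 0.155).

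The 16 assembly factors of the large subunit split into 12 lower and 4 higher genes, with a median of -0.53. RRP8 (YDR083W), a methyltransferase of large-subunit RNA, had -1.20, -0.99, -0.97 and -0.92, a 2.03-fold lower level with a limma adjusted p of 4.77e-07. NOP2 (YNL061W), another methyltransferase of that RNA, had -1.01, -0.82, -0.88 and -0.92, with a limma adjusted p of 2.77e-07. With RRP1 they had the lowest 3 means of the group, and the values of RRP1 overlapped those of both. At the other end stood NOG2 (YNR053C), a GTPase that binds nuclear precursors of the large subunit, with 0.56, 0.53, 0.57 and 0.54. Its net signal was 3006, 2646, 2651 and 2292 for D10 Small and 1891, 1209, 1050 and 971.2 for the pool. NOG2 was 1.47-fold higher, with a mean of 0.55 ± 0.02 (SD, n = 4) and a limma adjusted p of 8.41e-07.

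RRP14 (YKL082C), a relative of the vertebrate protein SURF6 that associates with precursors of both subunits, was higher with 0.62, 0.56, 0.44 and 0.26 and a limma adjusted p of 0.000107. NOG1 (YPL093W), another GTPase of the large-subunit precursor, had 0.26, 0.38, 0.39 and 0.28, with a limma adjusted p of 4.92e-05. RRP15, also of the large-subunit precursor, had 0.13, 0.13, 0.086 and 0.12, with a limma adjusted p of 0.00653. NOG2, RRP14 and NOG1 lay above 0 on every array and above every array of RRP15. With median centring NOG2, RRP14 and NOG1 had smaller ratios of 0.37, 0.17 and 0.081, and NOG1 no longer passed. RRP15 did not pass in the authors' deposited values, with a ratio of 0.078. The 10 other genes of the group were lower, from -0.83 for RRP1 to -0.097 for NOP4, and ERB1 and YTM1, which form a complex with NOP7, had -0.50 and -0.55. NOP4 did not pass with median centring at -0.037, and without replicate 2 or replicate 3 its ratio of -0.089 or -0.095 did not pass either.

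Of 3 genes that act late or in export, TSR1 (YDL060W), a GTPase-like protein of the late small-subunit precursor, was lower with -0.84, -0.66, -0.71 and -0.68 and a limma adjusted p of 8.59e-07. LTV1, which leaves that precursor in the cytoplasm, had -0.062, -0.21, -0.083 and -0.16 and a limma adjusted p of 0.0103. It did not pass without replicate 2, at -0.10 (limma adjusted p = 0.0718), or with median centring, at -0.11. RRP12 (YPL012W), which takes part in the export of both subunits, had 0.055, 0.11, -0.035 and -0.12, values on both sides of 0 (limma adjusted p = 0.950), and was lower at -0.35 with median centring. TSR1 lay below LTV1 and RRP12 on each array without overlap.

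The position of the factors was checked against the genes around them. They lay on 22 chromosome arms, whose other tested genes had median ratios from -0.12 on IV left to 0.45 on XV left, while the medians of the arms left out by the rule were -0.81 for III left, -0.52 for I left, -0.49 for VII right and -0.31 for III right. For each factor the median ratio was taken over the tested genes among the 10 on either side of it, leaving out other members. These medians ran from -0.37 around DBP10 to 0.41 around MAK5, with a median of -0.0077. Of the 57 factors, 52 lay below the median of their neighbours, and the median difference over all 57 was -0.52. The same comparison was not made for all tested genes, so no share over all genes stands beside this count. NOP8 is the only factor on XV left, and its neighbours had a median of 0.011 against -0.67 for NOP8 itself. NOP10, KRI1 and RRP15 lay at the level of their neighbours, with differences of -0.0029, -0.0025 and -0.00075. NOG2 stood 0.60 above its neighbours, RRP14 0.21, RRP9 0.21, DBP7 0.17 and NOG1 0.078.

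**Figure D3:**
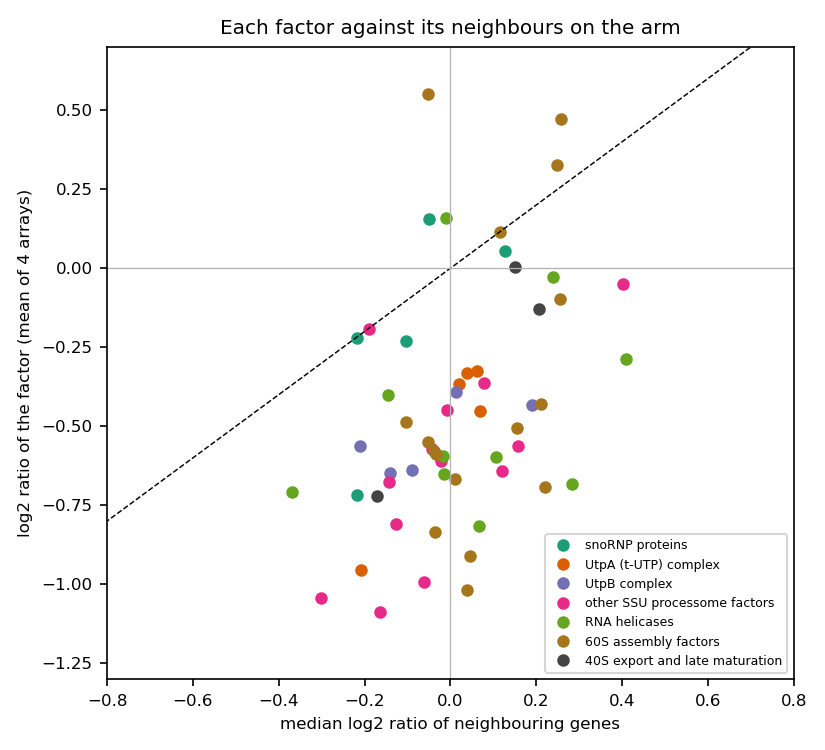
Mean log2 ratio of each of the 57 factors against the median log2 ratio of the tested genes among the 10 on either side of it on the same chromosome arm; colours give the role and the dashed line marks equal values. Points below the line, 52 of 57, are factors with a lower ratio than their neighbours.

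The factors also differed by chromosome. The 10 on chromosome IV, NOP14, RRP8, UTP4 and RRP1 among them, were all lower with a median of -0.72, against -0.45 for the 47 elsewhere. The other tested genes of IV left and IV right had medians of -0.12 and -0.096. Closer by, the medians of the neighbours of these 10 factors ran from -0.37 around DBP10 and -0.30 around NOP14 to 0.063 around UTP5. On chromosome XVI, 3 of 6 factors were higher and 2 lower, against 43.2% higher and 39.5% lower among all tested genes. The other tested genes of XVI left and XVI right had medians of 0.15 and 0.17. The difference between chromosomes was not tested. In a single case of factors a few genes apart the values opposed each other, with RRP14 at 0.47 and DHR2, 4 genes away on XI left, at -0.68. RRP8 and RRP1, 4 genes apart on IV right, were both lower, at -1.02 and -0.83.

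The factors were bright on these arrays, with 50 of 57 above the median brightness of all tested genes. Across the 57 genes the ratio correlated with brightness, with Pearson's r of 0.387 and Spearman's rho of 0.425, and the values share arrays, pool and dyes. The 28 brighter factors had a median of -0.46 with 4 higher and 21 lower, and the 29 dimmer ones -0.64 with 2 higher and 26 lower. These values are from loess, and the pattern depended on the normalisation. With median centring the brightest factors, RLP7 and NOP13, went from -0.43 and -0.49 to -0.82 and -0.87. The dimmest, BFR2 and SPB4, went from -0.68 and -0.40 to -0.48 and -0.19. The part of brightness in the ratios was not tested. Coding length, from 177 to 7482 bases, had a Spearman's rho of -0.153 with the ratio.

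**Figure D4:**
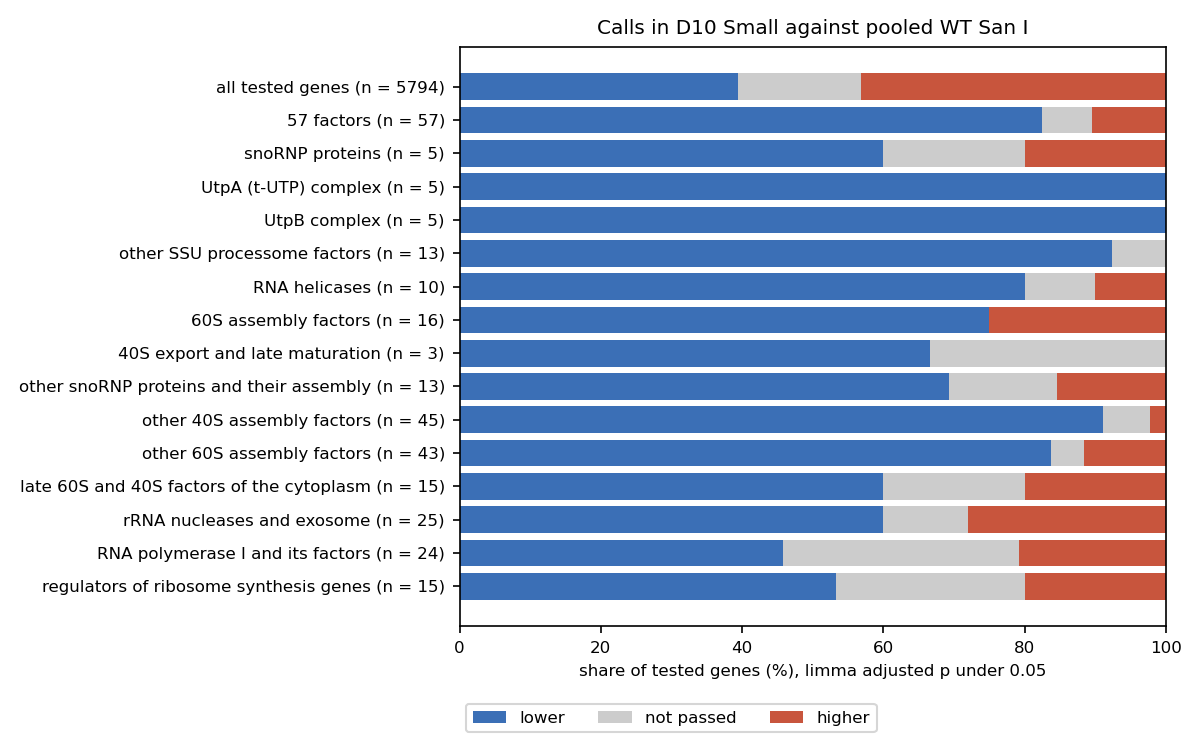
Share of tested genes (%) lower, not passing or higher in D10 Small against pooled WT San I at a limma adjusted p under 0.05, for all tested genes, for the 57 factors, for their 7 role groups and for 7 lists of other genes of the pathway. Lower genes make up 39.5% of all tested genes and 82.5% of the 57 factors.

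Other genes of the pathway, 179 in 7 lists, gave the surroundings of these values. The 45 other assembly factors of the small subunit had a median of -0.48, with 41 lower and 1 higher, and the 43 of the large subunit one of -0.50, with 36 lower and 5 higher. Unlike the 57 factors, both lists include genes on the arms of low ratios that the rule left out. The lowest of the first list was KRR1 at -2.06 and the highest TSR4, a chaperone of the ribosomal protein Rps2, at 0.91. Those of the second were SPB1, a methyltransferase, at -1.61 and NOP12 at 0.61. The 13 other snoRNP genes had a median of -0.13, with 9 lower and 2 higher, from SNU13, the core protein that binds the kink-turn of box C/D RNAs, at -0.52 to BCD1, an assembly factor of these particles, at 0.32. With median centring 5 of these 13 were lower and 3 higher.

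For 15 factors of cytoplasmic maturation the median was -0.35, with 9 lower and 3 higher, from the GTPase LSG1 at -0.71 to REI1 at 0.41, which did not pass with median centring. For 25 nucleases and exosome genes the median was -0.25, with 15 lower and 7 higher. They ran from the exosome subunit RRP43 at -1.39 to the exonuclease REX2 at 0.55. This list also includes genes on the arms that the rule left out, RRP43 among them. Its higher genes RRP40, DIS3 and REX4 lie on XV left. Of RNA polymerase I and its factors, 24 genes, 45.8% were lower and 20.8% higher, against 39.5% and 43.2% of all tested genes. That list had 11 lower and 5 higher genes and a median of -0.061. Median centring gave 7 lower, 8 higher and a median of 0.019 there. HMO1, a high mobility group protein bound to ribosomal DNA, was 2.16-fold lower in that list, with -1.28, -1.05, -1.09 and -1.01 and a limma adjusted p of 2.82e-07. RPO26, a subunit shared by the nuclear RNA polymerases, was the highest at 0.51, or 0.092 and not past the threshold with median centring.

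These other genes were also split by chromosome arm. I left, III and VII right were set apart because their genes as a whole had low ratios on these arrays. Apart from the 57 factors, tested genes had medians from -0.81 to -0.31 on those arms and 0.45 on XV left. The low values on those arms are therefore partly fixed by that choice. Without the regulators, 135 of the other pathway genes lie outside XV left and the arms I left, III and VII right. Of these, 100 were lower and 16 higher, the median was -0.32, and 1 was at least 2-fold lower. The 22 on I left, III and VII right had a median of -1.16, 21 of them were lower and 1 higher, and 13 were at least 2-fold lower. KRR1, SPB1 and RRP43 are among them. The 7 on XV left had 0 lower and 6 higher by limma, with a median of 0.38, TSR4 and NOP12 among them. The median of the 57 factors lay between those of the first and second of these sets, and the differences were not tested. The first set differs in make-up from the 57, since it also holds RNA polymerase I genes, nucleases and exosome genes.

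**Figure D5:**
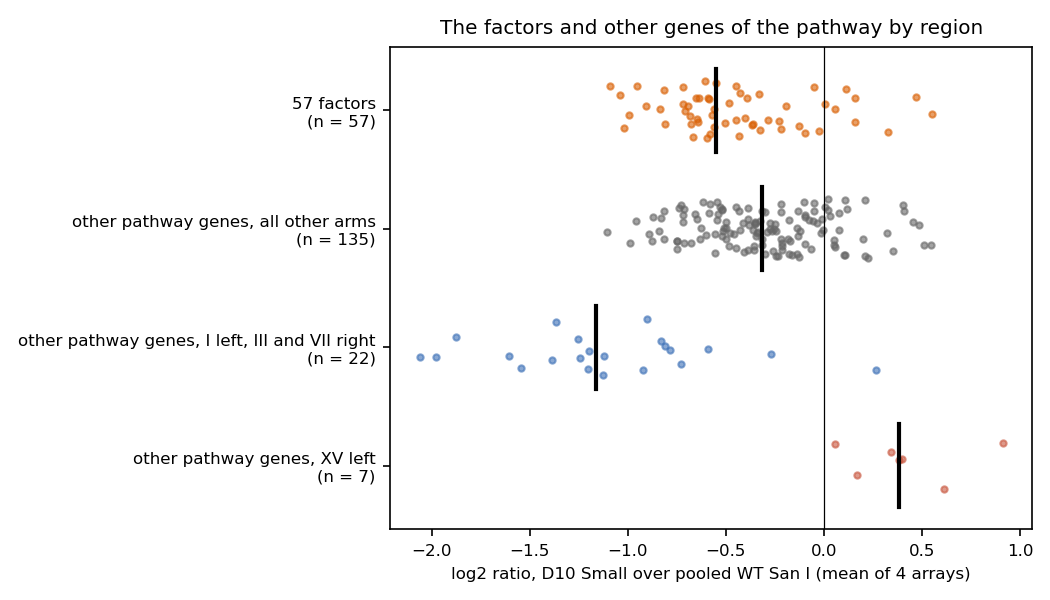
Mean log2 ratio of D10 Small over pooled WT San I for each of the 57 factors and for 164 other genes of the pathway, regulators left out, split by the chromosome arm they lie on; bars mark medians. The medians are -0.55 for the factors, -0.32 on all other arms, -1.16 on I left, III and VII right, and 0.38 on XV left.

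Regulators of ribosome synthesis genes were measured too. Of 15 listed, 8 were lower, 3 higher and 4 did not pass, with a median of -0.094. Median centring gave a median of -0.018, with 6 lower and 7 higher. TOD6, a repressor that binds upstream of ribosome biogenesis genes, was higher with 0.63, 0.62, 0.81 and 0.48 and a limma adjusted p of 9.04e-06. Its paralog DOT6 had 0.089, 0.20, 0.13 and -0.037 and did not pass (limma adjusted p = 0.0665), while it passed as higher at 0.14 both without replicate 4 and with median centring (limma adjusted p = 0.0121 and 0.0455). SFP1, an activator of these genes, had -0.40, -0.30, -0.074 and -0.26 and was lower with a limma adjusted p of 0.00192, but at -0.018 it did not pass with median centring. ABF1, a general regulatory factor, was lower with -1.09, -0.86, -0.84 and -0.77 and a limma adjusted p of 1.50e-06. FHL1, a forkhead factor at ribosomal protein genes, was lower at -0.30 ± 0.11 (SD, n = 4; limma adjusted p = 0.000335), and at -0.52 without background correction. Its coactivator IFH1 had -0.0015, -0.023, 0.072 and -0.026 and did not pass (limma adjusted p = 0.880), but with median centring it was higher at 0.21 (limma adjusted p = 0.00414). The repressor STB3 passed narrowly at -0.094 ± 0.07 (SD, n = 4; limma adjusted p = 0.0440), did not pass when replicate 2, 3 or 4 was left out, at -0.11, -0.059 and -0.093, and was higher at 0.15 with median centring.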

How the data were processed

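The 4 arrays were two-colour scans with one table of spots each. Per the labels, 250 ng of total RNA was amplified with T7 RNA polymerase. Per the file headers, the deposited spot values are mean intensities and local background intensities for the Cy3 channel (D10 Small) and the Cy5 channel (pool), not normalised, and the scanner's net log2 ratio of the same spots. For the scanner software and its filters, the sources used here give no name. The authors also deposited a value table of log2 ratios, 1 value per probe, whose column medians were -0.00029, -0.0057, -0.0012 and 0.0027. Against the ratios computed here it had Pearson's r from 0.965 to 0.972 and slopes from 1.17 to 1.26, so its direction is D10 Small over the pool, while its scaling and centring steps stay unknown.

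From the intensities, background was corrected by normexp with an offset of 50, and arrays were normalised by loess with control spots at weight 0 (limma 3.58.1, R 4.3.3). Spots beyond the quartiles by 1.42 interquartile ranges among the 7 of a probe in either channel, 5.88 to 7.93% of spots, were left out and the rest averaged. A probe was tested if most of its spots exceeded the mean of 153 negative control spots by 2.6 SD in either channel on 3 or more arrays, and this kept 5794 of 6256 genes. The log2 ratio was tested against 0 with lmFit and eBayes and adjusted by Benjamini-Hochberg over all tested genes. D10 Small is the only group, so 4 arrays limit the precision. The median signal of the pool, the dimmer channel, was 120.4 to 260.5, and 86.0 to 89.1% of probes exceeded background there. The steps were tested on simulated data with balanced changes in a small share of the genes. That simulation held no dye trend over brightness and no error of the shared pool, so it does not cover those limits.

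Alternatives changed the background correction, the normalisation, the filter, the handling of spots, the variance model, the threshold, the source of values and the replicates used. The 57 members, their role groups and the 7 other lists (182 symbols, all matched, 179 distinct genes) were chosen with earlier results of these data known. Symbols came from the arrays and from RefSeq annotation R64. Values of every array are given for the lowest 2 and the highest member of each role group and for each member that was higher or did not pass. Other members are named with their mean only, as examples of a role. Non-members named are the lowest and highest of each list and 6 regulators, SFP1, STB3, DOT6, TOD6, IFH1 and FHL1. Promoter sequences were planned and were not analysed here.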

Additional observations from a re-analysis of the deposited data

Results flagged for a closer look

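Each of 91 named results was examined for an array far from the other 3, by the gap to its nearest neighbour as a share of the range of all 4 arrays. Chance marks about 1 in 20, and 3 of 91 were marked. UTP30, an SSU processome protein, had a ratio of -0.42 on the array of replicate 3, against -0.73 to -0.69 on the others. DBP9 had -0.99 on the array of replicate 1, against -0.77 to -0.74. MAK5, a helicase of the large subunit, had -0.086 on the array of replicate 4, against -0.37 to -0.33. All 3 genes were lower by limma with every array left out in turn.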

How the results depend on the processing

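No paired analysis was possible because D10 Small is the only group and every replicate was set against the same pool. The number of lower members stayed between 39 (minimum fold of 1.2) and 48 in every alternative, and between 45 and 47 with 1 replicate left out. The member median was -0.48 with median centring, -0.64 in the scanner's net ratio and from -0.57 to -0.51 with 1 replicate left out. At least 2-fold lower were 5 members without background correction, 5 with an offset of 10, 5 in the authors' value table, 10 in the net ratio, 1 with median centring, and 2 to 4 with 1 replicate left out. A minimum fold of 1.2 left 2 higher members and, over all genes, 1154 lower and 1424 higher, or 19.9% lower.

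Median centring turned NOP10 (0.025), UTP23 (0.18), RRP12 (-0.35), NOP58 (-0.15), STB3 (0.15) and the median of the RNA polymerase I list (0.019). RRP12 was also turned without background correction (-0.0082), with an offset of 10 (-0.013), with loess fitted outside the shifted arms (-0.017), in the net ratio (-0.04) and with 1 replicate left out (-0.033 to 0.044). IFH1 was turned without background correction (-0.0027), with that loess (-0.019), in the authors' table (-0.038), in the net ratio (-0.083), with the median of all spots (-0.017) and with 1 replicate left out (-0.017 to 0.016), and passed as higher with median centring (0.21). NOP58 in the net ratio (-0.0075) and DBP3 with the median of all spots (0.0097) changed sign too. Median centring also made the ratios of 10 members over 1.5 times larger in size and of 14 over 1.5 times smaller, sign changes included. The settings differ in that loess subtracts a curve over brightness on each array, while median centring subtracts the same value from every spot. Calls of all 57 members were the same with no filter, with both channels required above background, with an intensity trend and without replicate 4. The 2 filter settings could not drop a member, since all 57 were above background in both channels on every array. Those settings and the intensity trend left the ratios of the members unchanged. The dim pool channel limits ratios of faint probes, and with 4 arrays differences near 0 are not resolved.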
